A study of Mus musculus with 4 samples.

Results

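The genes described here are the ligands, receptors and binding proteins of 5 secreted growth factor systems, those of FGF, PDGF, VEGF, IGF and HGF, measured in sorted cells of mouse gastric tumours. They were chosen by gene symbol: the numbered Fgf, Fgfr and Igfbp genes, Pdgfa to Pdgfd, Pdgfra and Pdgfrb, Vegfa to Vegfd, and Igf1, Igf2, Igf1r, Igf2r, Hgf, Met, Flt4 and Pgf. Among mouse RefSeq genes 51 symbols met this rule, and 50 of them had a probe among the 17016 symbols named on the array, with 80 probes in all (Fgf4 had none). Of these, 35 were tested, out of 21045 genes tested in all, because 1 group or both had a probe well above background on each of its arrays. The remaining 15 were not. The 21045 count each array accession without a RefSeq symbol as a gene, and 13411 of them have a symbol.

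The samples came from glandular stomach tumours of 30-week-old mice of the K19-Wnt1/C2mE background, where the K19 (keratin 19) promoter makes stomach epithelium express Wnt1 together with cyclooxygenase-2 (Ptgs2) and prostaglandin E synthase (Ptges). All 4 samples carry these transgenes, and normal stomach was not analysed here. Tumours were digested for 3 h, cells without lineage markers (Lin-) were kept, and RNA of the Lin- CD44+ fraction (2 arrays) was set against that of the Lin- CD44- fraction (2 arrays), each sample hybridised to its own one-colour oligonucleotide array. The lineage markers are not named in the sources used here. Since the labels do not tie the replicates to separate mice, a p-value speaks only of the spread among these 4 samples, and that spread may be technical.

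Each of these systems joins secreted ligands to receptor tyrosine kinases, which signal through adaptor proteins, the RAS and MAP kinase cascade and PI3 kinase. PDGF, HGF and several FGFs typically pass between connective tissue and epithelium, VEGFs act mainly on the endothelium of blood and lymph vessels, and IGF signals are modulated outside the cell by binding proteins that hold the ligands in the matrix or release them. In the stomach wall, fibroblasts, pericytes and endothelium are the usual sources of many of these transcripts, and Met and Fgfr4 are usually found on epithelial cells.

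Levels below are log2 processed signals relative to the 75th percentile of the same array, and differences are CD44+ minus CD44- with the standard error (SE) of the limma fit on 2 arrays per group, a number that limits the precision of every value. The 75th percentile was 244 on CD44+ array 1, the dimmest, and between 406 and 527 on the other arrays, and between 53.1% and 69.6% of gene spots were well above background. Cd44, the sort marker, stood at 6.31 and 6.54 in CD44+ cells and at 4.26 and 5.11 in CD44- cells, a 3.34-fold difference (1.74 ± 0.49, adjusted p = 0.199). The groups did not overlap for Cd44.

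The genes with large differences towards CD44- cells were in the IGF system, the PDGF receptors, Pdgfb and Vegfc, while Igf2, Met, Fgfr4 and Fgf15 had more signal in CD44+ cells. For most of the former the tested probe was not well above background on CD44+ array 1. None of the 35 had an adjusted p under 0.05 (limma, with Benjamini-Hochberg adjustment over all genes tested), where 84 of 21045 did (0.399%), 5 of them higher (0.0238%) and 79 lower (0.375%) in CD44+ cells. At an unadjusted p under 0.05 there were 11 members (31.4%) against 10.8% of all genes. Limited to probes well above background on all arrays, these were 4 of 26 members (15.4%) against 7.88% of 17201 genes. With no overlap of the groups and a gap of 2-fold or more, 9 members were lower in CD44+ cells (25.7%, against 9.66% of all genes) and 3 were higher (8.57%, against 3.8%). The 9 were Igf1, Igf1r, Igfbp3, Igfbp4, Igfbp6, Igfbp7, Pdgfb, Vegfc and Fgf12, and the 3 were Igf2, Fgfr4 and Fgf15. Of the 9, only Igfbp3 and Igfbp7 had a tested probe well above background on all 4 arrays. The tested probes of the other 7 were not well above background on CD44+ array 1. They passed only because both CD44- arrays were, a filter that favours this direction. For Igf1r and Pdgfb a dimmer probe was well above background on all 4 arrays and differed by -1.05 (Igf1r) and -0.47 (Pdgfb). With tests limited to probes well above background on all arrays, 26 members remained, of which 3 were higher (11.5%, against 4.33% of 17201 genes) and 2 lower (7.69%, against 4.31%), with 17 differences above and 9 below 0. Among the 13411 genes with a symbol, 8.91% were lower and 4.32% higher by the first count. Without overlap at any size were 19 of the 35 (54.3%), against 39.6% of all genes. The median difference of the 35 was -0.17, with 17 above and 18 below 0, and that of all genes tested was 0.16.

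These counts depended on single arrays. With CD44- array 1 left out 13 members passed, 12 lower and 1 higher in CD44+ cells, and with CD44- array 2 left out Igf1r alone passed, while 0 passed without either CD44+ array. The count over all genes was 34 without CD44+ array 1, 2 without CD44+ array 2, 1569 without CD44- array 1 and 449 without CD44- array 2. Scaling every array to its median called 748 genes (121 higher and 627 lower), among them Igf1, Igf1r, Igfbp7 and Vegfc, and the median of all genes tested moved from 0.16 to 0.26.

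**Figure D1:**
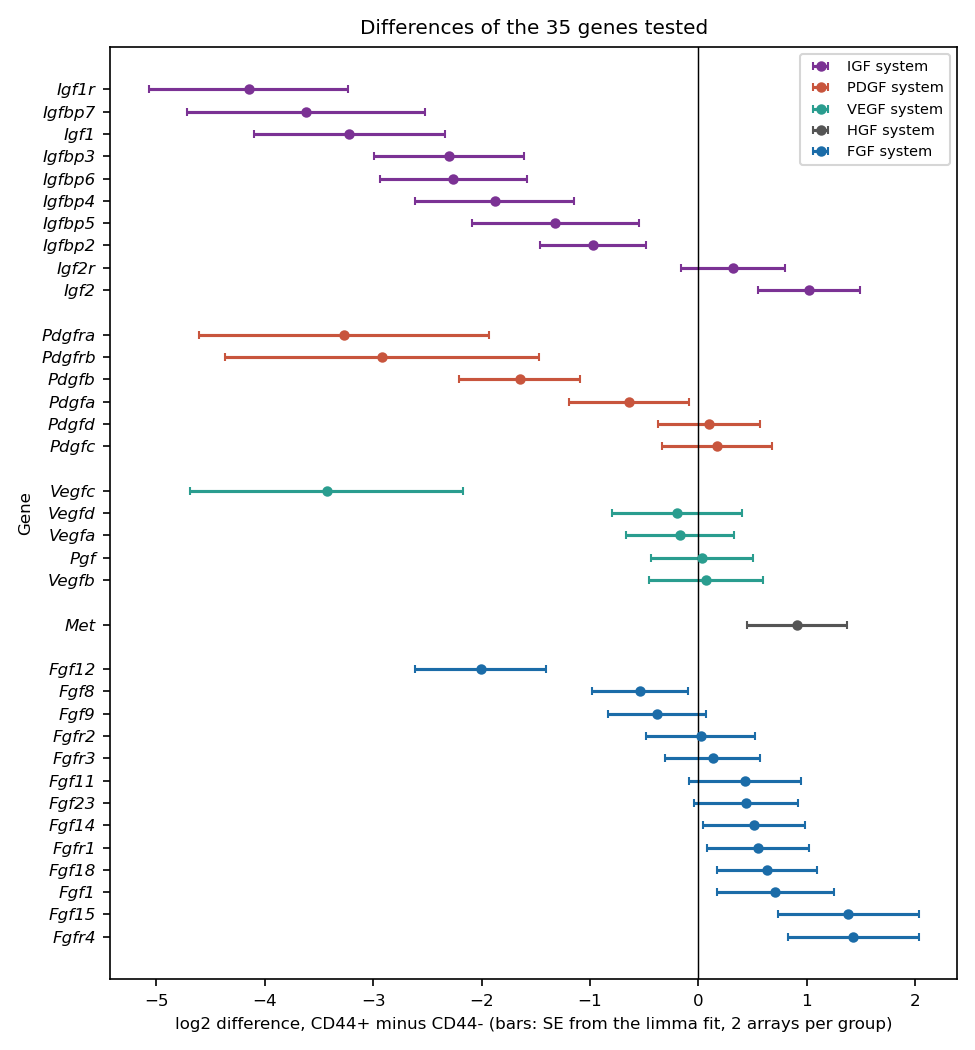
log2 difference, CD44+ minus CD44- cells, of the 35 genes tested, with the SE of the limma fit (2 arrays per group) as bars and colour for the growth factor system. Igf1r (-4.15) lies farthest below 0 and Fgfr4 (1.43) farthest above. Below 0 lie 8 of 10 IGF system genes and 3 of 13 FGF system genes, beside 8300 of all 21045 genes tested. The tested probes of Igf1, Igf1r, Igfbp2, Igfbp4, Igfbp6, Fgf9 and Fgf12 passed the filter only through the CD44- arrays. That filter favours a sign below 0.

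The RefSeq sequence of the 250 bases before the start (mouse build GRCm38.p6) is shown for the 3 IGF genes with the largest differences towards CD44- cells and for the receptor genes Met and Fgfr4, whose difference had the other sign, so that the 2 sides can be compared. Capitals mark letters that match, on either strand, 1 of 5 motifs. The TATA box was searched as TATAAA, and the box named for its letters as CCAAT. For the GC box the letters were GGGCGG, for the AP-1 motif TGANTCA, and for the core bound by TCF and LEF factors CTTTGA. None of the matches shown overlap. They lie at chr7:67952007-67952256 (Igf1r, + strand), chr10:87860861-87861110 (Igf1, + strand), chr5:77408046-77408295 (Igfbp7, - strand), chr6:17463707-17463956 (Met, + strand) and chr13:55152568-55152817 (Fgfr4, + strand), each printed 5′ to 3′ in the direction of the gene.
Igf1r: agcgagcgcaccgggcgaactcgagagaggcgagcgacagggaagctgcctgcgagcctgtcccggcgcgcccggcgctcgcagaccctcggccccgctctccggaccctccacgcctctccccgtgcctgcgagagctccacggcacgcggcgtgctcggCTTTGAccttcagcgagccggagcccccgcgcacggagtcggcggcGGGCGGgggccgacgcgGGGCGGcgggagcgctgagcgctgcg
Igf1: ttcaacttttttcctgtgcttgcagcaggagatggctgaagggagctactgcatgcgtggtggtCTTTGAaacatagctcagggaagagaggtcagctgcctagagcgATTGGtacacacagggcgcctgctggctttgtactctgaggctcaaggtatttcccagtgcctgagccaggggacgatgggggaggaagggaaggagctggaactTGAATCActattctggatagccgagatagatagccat
Igfbp7: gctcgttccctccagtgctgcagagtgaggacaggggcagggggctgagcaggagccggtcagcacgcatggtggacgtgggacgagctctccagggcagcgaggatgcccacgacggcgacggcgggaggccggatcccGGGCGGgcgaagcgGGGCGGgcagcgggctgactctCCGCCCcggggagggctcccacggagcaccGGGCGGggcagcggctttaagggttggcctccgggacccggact
Met: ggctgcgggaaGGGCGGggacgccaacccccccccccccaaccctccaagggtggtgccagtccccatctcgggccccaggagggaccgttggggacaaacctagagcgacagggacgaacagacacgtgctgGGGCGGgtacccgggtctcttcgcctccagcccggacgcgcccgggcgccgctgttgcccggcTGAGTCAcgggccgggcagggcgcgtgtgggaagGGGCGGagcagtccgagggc
Fgfr4: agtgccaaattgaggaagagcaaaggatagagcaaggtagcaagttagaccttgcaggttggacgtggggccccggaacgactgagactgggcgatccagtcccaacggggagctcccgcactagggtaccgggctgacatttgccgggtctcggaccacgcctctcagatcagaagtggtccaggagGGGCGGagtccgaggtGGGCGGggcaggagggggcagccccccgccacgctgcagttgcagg
Igf1r, Igfbp7, Met and Fgfr4 held 2, 4, 3 and 2 GC boxes in stretches of 77.6%, 74%, 74% and 64% G and C, while Igf1, at 52.8%, held none but a CCAAT box, on the opposite strand. An AP-1 motif stood in Igf1 (37 to 31 bases before the start) and in Met (54 to 48 bases before it), thus on both sides of the comparison. The TCF and LEF core stood in Igf1r and Igf1. Over the 57 promoters found for 42 of the 51 symbols, a GC box was in 56.1%, against 32.7% of all 32851 mouse promoters in the table, and the TCF and LEF core was in 10.5% against 13.8%. A TATA box was in 8.77% against 12.4%, a CCAAT box in 21.1% against 33.8%, and an AP-1 motif in 8.77% against 6.75%. These matches describe the letters and no binding was measured.

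IGF ligands and receptors split by gene. Igf1r, the receptor kinase for both IGFs, stood at -5.04 and -2.60 on CD44+ arrays 1 and 2 and at -0.73 and 1.39 on CD44- arrays 1 and 2. Every CD44+ level was thus under every CD44- level, and within each group array 2 was the higher. The difference was -4.15 ± 0.92, or 17.8-fold, the largest of the 35 in size (adjusted p = 0.126). All 3 Igf1r probes had less signal in CD44+ cells, but the other 2 differed by only -1.05 and -0.69. The probe with -4.15 was not well above background on CD44+ array 1, and that with -0.69 was so on CD44- array 2 only. Leaving out each array gave -5.38 to -2.93. Igf1, the growth factor made by many stromal cells, had levels of -3.43 and -1.68 in CD44+ cells and -0.59 and 1.91 in CD44- cells. Its arrays fell in the same order as those of Igf1r, again without overlap, but it too was not well above background on CD44+ array 1. The difference was -3.22 ± 0.88 (9.3-fold, adjusted p = 0.191). Without CD44- array 2 the Igf1 difference was -1.97 and without CD44- array 1 it was -4.47.

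Igf2, the fetal growth factor encoded by an imprinted gene, went the other way. Its levels were 4.52 and 4.01 in CD44+ cells and 3.53 and 2.97 in CD44- cells, a difference of 1.02 ± 0.47 (2.02-fold, adjusted p = 0.524). Both CD44+ arrays were above both CD44- arrays, and the second Igf2 probe had a difference of 1.13. Leaving out each array in turn gave 0.73 to 1.30, so the sign held, and the adjusted p did not pass in any of 12 alternatives. Igf2r, the mannose 6-phosphate receptor that clears Igf2 from the cell surface, stood at 4.20 and 4.90 in CD44+ cells and at 4.45 and 4.02 in CD44- cells. Those groups overlapped (0.32 ± 0.48, adjusted p = 0.854), and the difference was -0.04 without CD44+ array 2.

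All 6 IGF binding proteins tested had less signal in CD44+ cells, with a median difference of -2.07, and none passed over all genes. The sign held under each of the scalings tried, which kept the same probes. The probes of Igfbp2, Igfbp4 and Igfbp6 were not well above background on CD44+ array 1. They were tested only because both CD44- arrays were, a filter that favours a sign below 0. With probes well above background on all arrays, 3 binding proteins remained, all below 0 (median -2.30). Igfbp7, a low-affinity binding protein abundant around vessels, had levels of 1.61 and 4.65 in CD44+ cells and 5.42 and 8.07 in CD44- cells. Array 2 was over 2 log2 units above array 1 in either group, and the groups still did not overlap. The difference was -3.62 ± 1.10 (12.3-fold, adjusted p = 0.238), and it was -2.10 without CD44+ array 1 and -5.14 without CD44+ array 2. Igfbp3, the main carrier of IGFs in serum, stood at 1.23 and 0.12 in CD44+ cells and at 2.07 and 3.88 in CD44- cells. Here CD44+ array 1 was the higher of its pair, unlike Igfbp7, and the difference was -2.30 ± 0.69 (4.94-fold, adjusted p = 0.228). It was -3.21 without CD44- array 1 and -1.40 without CD44- array 2.

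Igfbp6, which prefers Igf2 as its ligand, stood at -5.68 and -3.96 in CD44+ cells and at -3.17 and -1.95 in CD44- cells (-2.26 ± 0.68, 4.78-fold, adjusted p = 0.235). Igfbp4, which is cut by the protease Pappa, stood at -3.83 and -5.03 in CD44+ cells and at -3.56 and -1.53 in CD44- cells (-1.88 ± 0.73, 3.69-fold, adjusted p = 0.383). Neither of them was well above background on CD44+ array 1, so the values there are background readings. For Igfbp4 the CD44- value rests largely on array 2, without which the difference was -0.87. A second Igfbp4 probe, well above background on CD44- array 2 only, gave -1.79. With each array left out Igfbp6 ran from -3.11 to -1.40. Igfbp5, a binding protein held in the extracellular matrix, stood at 1.46 and 2.79 in CD44+ cells and at 2.34 and 4.54 in CD44- cells, with overlap (-1.32 ± 0.77, adjusted p = 0.685), and -0.37 with a second probe. Igfbp2 differed by -0.97 ± 0.49 (adjusted p = 0.585), without overlap. Igfbp1 was not well above background on any array.

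Among 13 partners of the IGF system, 9 were tested and none passed, with a median difference of 0.06. Pappa, the protease that frees IGFs from Igfbp4, stood at -5.68 and -4.51 in CD44+ cells and at -2.54 and -0.70 in CD44- cells. On CD44+ array 1 it was not well above background, and the difference was -3.48 ± 0.70 (11.1-fold, adjusted p = 0.106), or -1.23 with normexp, another background correction. Htra1, a serine protease that also cuts IGF binding proteins, differed by -2.47 ± 1.10 (adjusted p = 0.489), with overlap, and by -0.96 without CD44- array 2. The adaptor Irs1 differed by -0.83 ± 0.65 and Igfals, the acid-labile subunit of the serum IGF complex, by 0.69 ± 0.56. Irs1 was well above background on neither CD44+ array, so its values there are background readings.

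**Figure D2:**
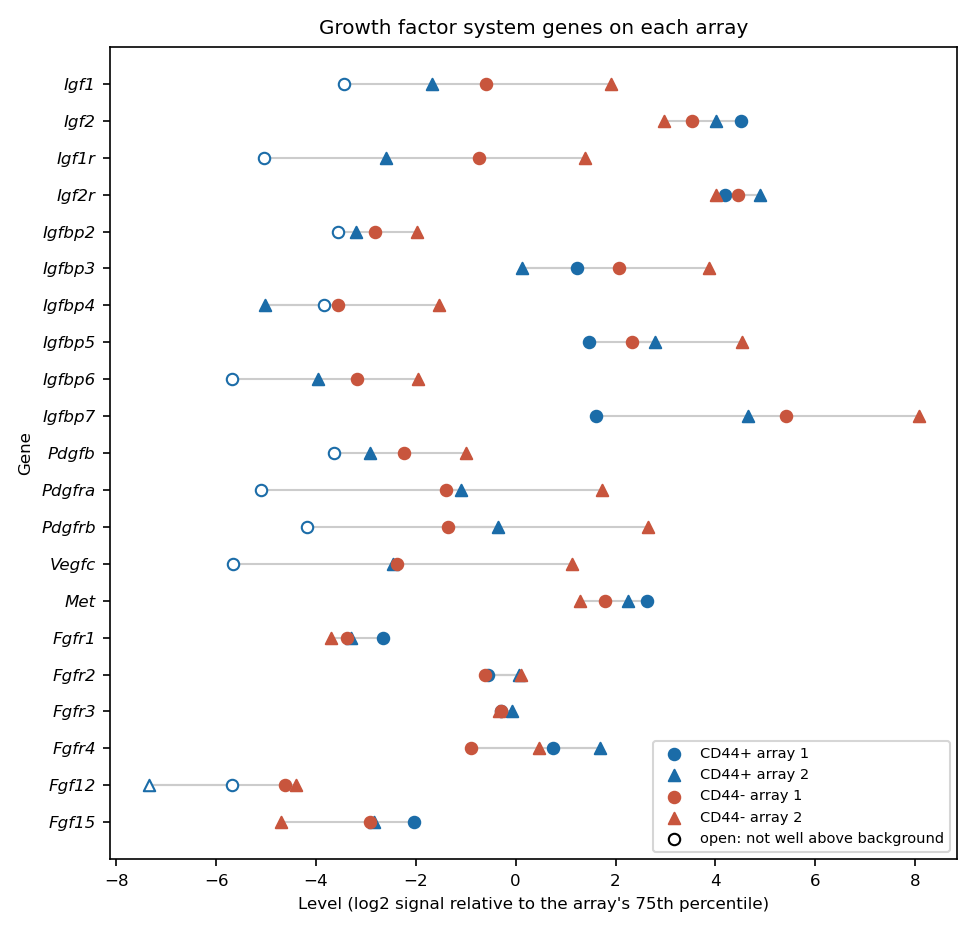
Level of 21 genes on each of the 4 arrays, in log2 signal relative to the 75th percentile of the array, with CD44+ arrays in blue and CD44- arrays in red, circles for array 1 and triangles for array 2. Open symbols mark probes not well above background, and for Igf1, Igf1r, Igfbp6 and Pdgfb the arrays run from CD44+ array 1 at the low end to CD44- array 2 at the high end.

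Both PDGF receptors, the kinases that mark fibroblasts (Pdgfra) and pericytes (Pdgfrb), differed between arrays of one group by about as much as between groups. Pdgfra stood at -5.11 and -1.09 in CD44+ cells and at -1.40 and 1.72 in CD44- cells (-3.27 ± 1.34, 9.62-fold, adjusted p = 0.423). Pdgfrb stood at -4.19 and -0.36 in CD44+ cells and at -1.36 and 2.65 in CD44- cells (-2.92 ± 1.45, 7.57-fold, adjusted p = 0.574). For either receptor CD44+ array 2 lay above CD44- array 1, so that the groups overlapped, and CD44+ array 1 was not well above background. The gaps between array 2 and array 1 were 4.02 and 3.12 for Pdgfra in CD44+ and CD44- cells, and 3.83 and 4.01 for Pdgfrb. Without CD44+ array 1 the differences were -1.26 and -1.0, and a second Pdgfra probe, dim on most arrays, gave -0.33.

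Of the PDGF ligands, Pdgfb, which draws pericytes to vessels, had levels of -3.64 and -2.91 in CD44+ cells and -2.24 and -1.0 in CD44- cells. The difference was -1.65 ± 0.56 (3.15-fold, adjusted p = 0.300), without overlap, and the probe was not well above background on CD44+ array 1. A second probe, which passed that mark on all 4 arrays, gave -0.47. Pdgfa, often made by epithelium, stood at 4.18 on CD44+ array 1 and between 5.41 and 5.59 on the other arrays, a difference of -0.64 ± 0.55 (adjusted p = 0.787) with overlap. Pdgfc and Pdgfd, the ligands activated by proteolysis, differed by 0.17 ± 0.51 and 0.10 ± 0.47, also with overlap.

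Among the VEGF ligands one gene stood apart. Vegfc, the growth factor of lymphatic endothelium, stood at -5.67 and -2.46 in CD44+ cells and at -2.38 and 1.12 in CD44- cells (-3.43 ± 1.26, 10.8-fold, adjusted p = 0.346). On CD44+ array 1 Vegfc was not well above background. Its CD44+ array 2 and CD44- array 1 nearly met, and array 2 was 3.21 and 3.50 above array 1 in the CD44+ and CD44- groups. Without CD44- array 2 the difference was -1.68, without CD44- array 1 it was -5.18, and with normexp it was -1.71. Vegfa, the main growth factor of blood vessels, had levels of 3.60 and 4.47 in CD44+ cells and 3.99 and 4.42 in CD44- cells (-0.17 ± 0.50, adjusted p = 0.928). Vegfb, Vegfd and Pgf differed by 0.07 ± 0.53, -0.20 ± 0.60 and 0.03 ± 0.47. These 4 overlapped between groups, and Vegfd stood over 2-fold higher on array 2 than on array 1 in each group, by 1.23 and 1.12.

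Flt1 and Kdr, the VEGF receptors of blood endothelium, are outside the symbol rule and had less signal in CD44+ cells. They differed by -4.74 ± 1.21 (26.7-fold, adjusted p = 0.170) and -4.66 ± 1.16 (25.2-fold, adjusted p = 0.162). Levels of Flt1 were -2.52 and -0.50 in CD44+ cells and 1.20 and 5.25 in CD44- cells, and the groups of both genes did not overlap. Leaving out each array moved Flt1 between -6.76 and -2.71 and Kdr between -6.75 and -2.56, lowest without CD44- array 1 and highest without CD44- array 2, and both genes passed in 6 of 12 alternatives. The co-receptor Nrp2 differed by 0.34 ± 0.59, with overlap, and Nrp1 was not tested. Flt4, the receptor for Vegfc and Vegfd, had signals of 4.61 and 10.3 in CD44+ cells and 8.26 and 24.3 in CD44- cells, of which only the last was well above background.

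Hgf was well above background on 1 array only. Its brighter probe had processed signals of 4.87 and 8.29 in CD44+ cells and 12.8 and 189 in CD44- cells, with CD44- array 2 alone well above background, and so it was not tested. Met, its receptor, stood at 2.64 and 2.25 in CD44+ cells and at 1.79 and 1.29 in CD44- cells. The CD44+ arrays were above the CD44- arrays, in the order reverse to that of Igf1, and the difference was 0.91 ± 0.46 (1.88-fold, adjusted p = 0.589). All 3 Met probes had more signal in CD44+ cells (0.62 and 1.62 in the other 2). The probe with 1.62 was well above background on CD44+ array 2 only. Leaving out each array gave 0.66 to 1.16. Of 10 genes that activate HGF or act beside Met, 8 were tested and none passed, with a median of 0.16. The HGF activator Hgfac (0.67 ± 0.46), tissue plasminogen activator Plat (0.64 ± 0.50) and the protease matriptase, St14 (0.42 ± 0.47), had the same sign as Met, and Mst1, the ligand of the related receptor Mst1r, had the opposite one (-0.60 ± 0.53).

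The FGF system lay closer to 0. Of 26 genes 13 were tested, with 10 differences above and 3 below 0 and a median of 0.44, beside 0.16 for all genes tested. That median is the value of Fgf23, whose unscaled signals were 42.2 and 47.6 in CD44+ cells and 41.2 and 47.5 in CD44- cells. The groups of Fgf11, Fgf14, Fgf18 and Fgf23 overlapped before scaling, and the 75th percentile used to scale was lowest, at 244, on CD44+ array 1. Fgfr4, the receptor that pairs with Fgf15 in bile acid control, stood at 0.74 and 1.69 in CD44+ cells and at -0.90 and 0.46 in CD44- cells. Both CD44+ levels were above both CD44- levels, by 1.43 ± 0.60 (2.69-fold, adjusted p = 0.444), while the unscaled signals of 407 and 1585 against 218 and 726 overlapped. Leaving out each array gave 0.75 to 2.11. Fgf15, a hormone-like FGF, stood at -2.03 and -2.83 in CD44+ cells and at -2.92 and -4.70 in CD44- cells (1.38 ± 0.65, 2.61-fold, adjusted p = 0.534). CD44- array 2 was the low one, and without it the difference was 0.49.

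The other FGF receptors varied little. Fgfr3 stood at -0.30 and -0.07 in CD44+ cells and at -0.30 and -0.33 in CD44- cells (0.13 ± 0.44, adjusted p = 0.935). Its other probes gave 0.63 and -0.02, the former well above background on no array. Fgfr2, the epithelial receptor for stromal FGFs, stood at -0.56 and 0.07 in CD44+ cells and at -0.62 and 0.10 in CD44- cells (0.02 ± 0.50, adjusted p = 0.990), and its other 2 probes gave -0.56 and -1.28. For Fgfr2 array 2 was the higher one in each group. Fgfr1, the receptor common in mesenchyme, stood at -2.66 and -3.30 against -3.37 and -3.70 (0.55 ± 0.47, adjusted p = 0.784). Its unscaled signals were 38.6 and 50 in CD44+ cells and 39.3 and 40.5 in CD44- cells, so that its groups overlapped before scaling. All 4 receptors were above 0 with each scaling tried, but Fgfr2 was at -0.61 with the probes of a gene averaged.

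Among FGF ligands, Fgf8 and Fgf9, secreted factors of development, differed by -0.54 ± 0.44 and -0.38 ± 0.45, and Fgf1 and Fgf18 by 0.71 ± 0.54 and 0.63 ± 0.46. The hormone Fgf23, which acts on the kidney, differed by 0.44 ± 0.48. FGF homologous factors stay inside the cell and bind sodium channels. Of these, Fgf11 and Fgf14 differed by 0.43 ± 0.52 and 0.51 ± 0.47, and 2 other Fgf14 probes gave -0.18 and -1.30. Fgf12 stood at -5.69 and -7.35 in CD44+ cells and at -4.63 and -4.40 in CD44- cells (-2.01 ± 0.60, adjusted p = 0.233). It was well above background on neither CD44+ array, and since the mean of the lowest levels that count as above background there exceeds its CD44- mean, no fold is given. A second Fgf12 probe, at background on all 4 arrays, gave 0.85.

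Of the 15 members not tested, 11 were well above background on no array, with processed signals between 2.73 and 13.1. These were Fgf2, Fgf3, Fgf5, Fgf6, Fgf10, Fgf16, Fgf17, Fgf20, Fgf21, Fgf22 and Igfbp1. The rest were read on some arrays. Fgf7, a stromal factor for epithelium, had signals of 4.72 and 26.5 in CD44+ cells and 12.3 and 55.7 in CD44- cells, well above background on array 2 of each group. Fgf13 was above background on CD44- array 1 only, at 18.1, and Hgf and Flt4 on CD44- array 2 only.

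Of 13 cofactors of the FGF system 10 were tested, and 1 passed. Fgfbp1, a secreted carrier that releases FGFs from the matrix, stood at -2.32 and -2.61 in CD44+ cells and at 1.63 and 1.42 in CD44- cells. The arrays of a group lay close together, unlike those of Igf1, Igf1r, Igfbp7, Pdgfra and Pdgfrb. The difference for Fgfbp1 was -3.99 ± 0.44 (15.9-fold, adjusted p = 0.0168). The call was lost with quantile normalization (adjusted p = 0.0743), when dim probes were kept (0.0754), without CD44+ array 1 (0.131) and without CD44+ array 2 (0.190). The heparan sulphate proteoglycans Gpc3 and Gpc1 differed by -1.79 ± 0.52 and -1.26 ± 0.68 (-0.24 for Gpc1 without CD44- array 2), and Sdc4 by 0.73 ± 0.44, none of which passed.

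Genes that act after the receptors had medians near the 0.16 of all genes tested. Of 16 genes induced by receptor kinase signalling 13 were tested and none passed, with a median of 0.20 and a range from -1.07 ± 0.59 for the inhibitor Spred1 to 0.77 ± 0.45 for the transcription factor Etv4. Its relative Etv5 differed by 0.58 ± 0.46 and the immediate early gene Egr1 by -0.90 ± 0.68. Of 21 adaptor and kinase genes 19 were tested and none passed, with a median of 0.26. The PI3 kinase subunit Pik3r1 differed by -1.09 ± 0.58, the ubiquitin ligase Cbl by -0.71 ± 0.50, Braf by 0.69 ± 0.53 and the phosphatase Ptpn11 by 0.54 ± 0.44. Spred1, Etv5 and Cbl were well above background on only 1 CD44+ array.

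The same array order ran through many members. At least 2-fold higher on array 2 than on array 1 were 13 of 35 in CD44- cells (37.1%, against 10.9% of all genes) and 10 in CD44+ cells (28.6%, against 8.43%). In both groups at once were 9 of 35 (25.7%, against 3.47%), namely Igf1, Igf1r, Igfbp5, Igfbp6, Igfbp7, Pdgfra, Pdgfrb, Vegfc and Vegfd. The full order from CD44+ array 1 through CD44+ array 2 and CD44- array 1 to CD44- array 2 held for 8 members (22.9%, against 8.8% of all genes). Another 5 (14.3%, against 6.09%) had CD44- array 1 below CD44+ array 2 instead, among them both PDGF receptors. Of the 8, only Igfbp7 had a tested probe well above background on CD44+ array 1. For the rest of the 8, and for both PDGF receptors, the value on that array is a background reading. For 11 of the 35 the tested probe was not well above background on CD44+ array 1. Such a probe was tested only where both CD44- arrays were well above background. That filter favours a sign below 0, which all 11 shared, so the shared sign carries little weight. Under the filter on all arrays the 2-fold gap in both groups was seen in 3 of 26 members (11.5%, against 1.7% of all genes).

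**Figure D3:**
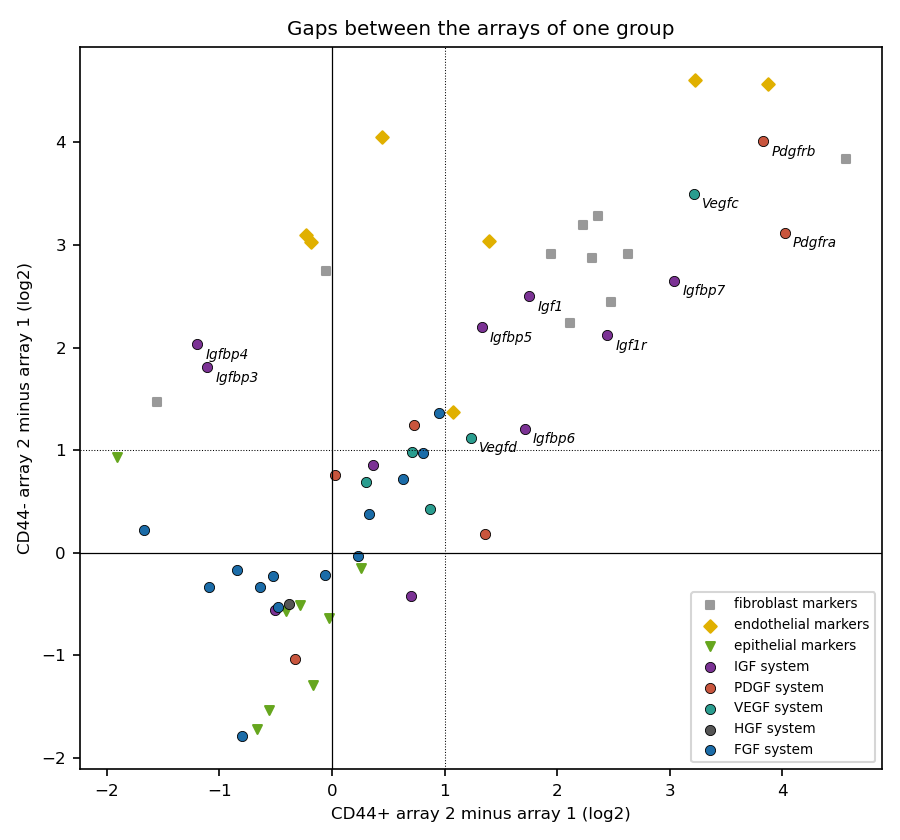
Array 2 minus array 1 within CD44+ cells (horizontal) and within CD44- cells (vertical), in log2 units, for the 35 genes by growth factor system and for marker genes of fibroblasts, endothelium and epithelium. Dotted lines mark a 2-fold gap. Pdgfra, Pdgfrb, Vegfc and Igfbp7 lie beyond both lines, as do most fibroblast markers and the endothelial markers Cdh5, Emcn, Robo4 and Tek. No FGF system gene lies beyond both.

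Many markers of stromal cells moved with these members. All 10 fibroblast markers were tested, all had less signal in CD44+ cells (median difference -3.22), and all 10 were at least 2-fold higher on CD44- array 2 than on array 1. Their signals, each divided by the array's 75th percentile, summed to 7.81 and 42.6 in CD44+ cells and 68.2 and 455 in CD44- cells. Igf1, Igf1r and Igfbp7 shared this order of arrays, and so did the endothelial, mural and endocrine sums given below. Dpt and Mfap5 were well above background on neither CD44+ array. Endothelial markers (7 of 10 tested, median -4.44) summed to 1.2 and 1.83 against 5.37 and 91.8. Pecam1 and Tie1 were above background on 1 CD44- array only and Erg on none. Cdh5, Emcn and Robo4 passed the filter only through the CD44- arrays, and Tek had the opposite sign (0.30 ± 0.61), with overlap. Mural and smooth muscle markers (8 of 9 tested, median -1.81) summed to 9.13 and 11.6 against 13.6 and 64.7, with Des above background on no array. Acta2 and Cspg4 differed by only -0.49 and -0.79, and Rgs5, Mcam and Cnn1 passed the filter only through the CD44- arrays. Their part in the results for Igf1, Igf1r, the IGF binding proteins, the PDGF receptors and Vegfc was not tested, and in such bulk samples fewer cells of a type and less RNA per cell cannot be told apart.

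Markers of other cell types moved as well. Epithelial markers, all 8 of them tested, had a median difference of 0.49 and summed to 2177 and 1562 against 1982 and 854. The sum, Met and Igf2 were all lowest on CD44- array 2. For the sum, however, CD44- array 1 exceeded CD44+ array 2, which it did not for Met or Igf2. Cldn4 alone lay below 0 (-2.19 ± 0.69), and it was well above background on only 1 CD44+ array. Squamous markers (7 of 7 tested, median -6.20) summed to 16.7 and 1.98 against 215 and 364, and endocrine markers (8 of 8, median -6.10) to 3.59 and 5.16 against 366 and 782. Trp63, Krtdap, Dsg3, Scg5 and Neurod1 among these passed the filter only through the CD44- arrays. The remaining lists had medians of 0.42 for leukocytes (6 of 6 tested), 0.33 for macrophages (3 of 6), 1.71 for mast cells (6 of 7), -0.62 for glia and neurons (5 of 6) and -0.62 for erythroid cells (3 of 4), and of 5 lymphatic markers only Lyve1 was tested (-2.14 ± 0.79). The part of these cells in the results was not tested.

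**Figure D4:**
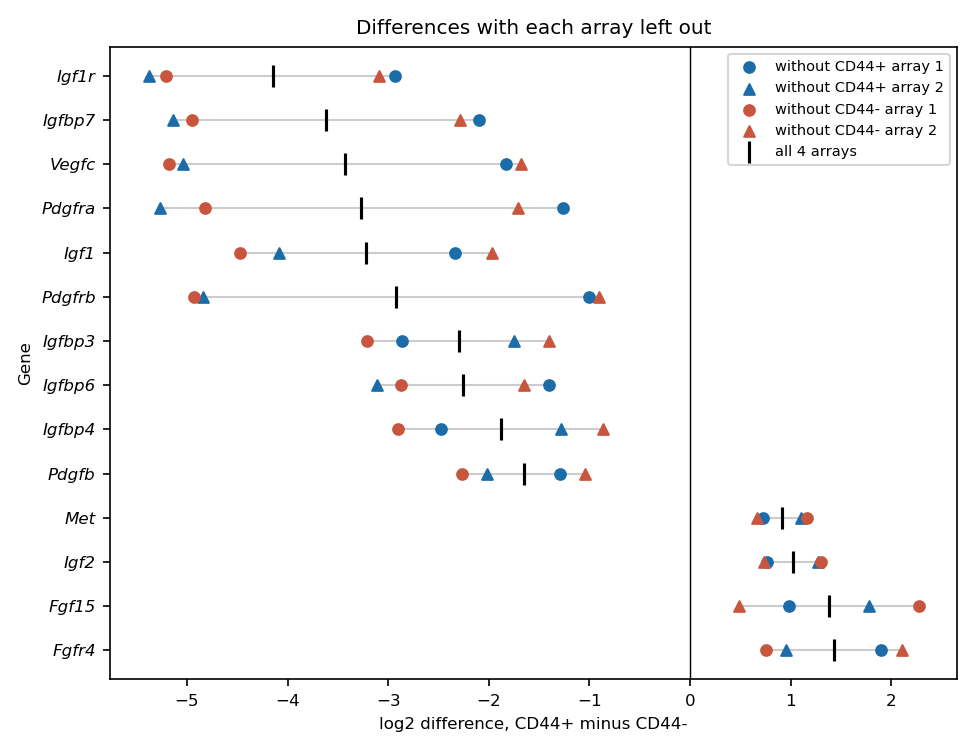
log2 difference, CD44+ minus CD44-, of 14 genes with all 4 arrays (black bar) and without one of them at a time (blue for a CD44+ array, red for a CD44- array, circles for array 1 and triangles for array 2). Igfbp7 runs from -5.14 to -2.10 and Pdgfrb from -4.93 to -0.91, while Met stays between 0.66 and 1.16.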

How the data were processed

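RNA of 2 Lin- CD44+ and 2 Lin- CD44- samples was measured on 4 one-colour arrays. Groups and replicate numbers came from the sample titles. RNA was amplified from 25 ng before Cy3 labelling, per the labels' protocols, which can distort ratios between transcripts. The authors deposited 1 scanner table per array, whose processed signal is a background-subtracted intensity on a linear scale, per the file headers, with flags for outlier spots and for signal well above background. Feature Extraction was version 10.1.1.1 per the file headers and 9.5 per the submitters' processing notes. The authors also deposited a table of values that, set against the scanner values, is a linear ratio of each array to the probe's median; how its array factors were chosen is unknown.

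Control and outlier spots were left out, spots of a probe were averaged as log2, and each array's 75th percentile was subtracted. A probe was tested if at least 50% of its spots were well above background on both arrays of 1 group, and the brightest probe stood for its gene. Accessions matched to RefSeq (GRCm38.p6) named 24375 of 41174 probes for 17016 symbols, and 16799 stayed unnamed. The fit used limma 3.58.1 in R 4.3.3 (lmFit, eBayes; 2 residual and 6.01 prior degrees of freedom), with Benjamini-Hochberg adjustment over 21045 genes and an adjusted p under 0.05 as the call. It was tested on simulated data. Alternatives were median scaling, quantile normalization, normexp on the median signal, the authors' value table, no filter, a filter on all arrays, the mean of a gene's probes, the replicate number as a block, and each array left out. All 4 arrays came from 1 slide and 1 scan, so neither could be a block.

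Named with full values are members at least 2-fold apart without overlap, and all receptors; of 6 pathway lists, up to 4 genes with the smallest adjusted p; and Cd44, Flt1, Kdr, Nrp1 and Nrp2. Markers of 12 cell types were summarised. Igfbp2, Igfbp5, Vegfa and a few ligands are shown beside their group by role. The members and lists were chosen with earlier results of these data known. No protein sequences and no array coordinates were used here.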

Additional observations from a re-analysis of the deposited data

How the results depend on the processing

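All 12 alternatives were fitted; the replicate block gives no count by overlap. Over 221 values of 19 named members, 177 kept their direction and side of the threshold, 39 newly passed, 0 lost a call and 5 reversed. The 84 genes called became 748 with median scaling, 6 with quantile normalization, 540 with normexp, 753 with the authors' value table and 24 with no filter. With a filter on all arrays they were 79, of which 18 were higher. Leaving out 1 array gave 2 to 1569, the lone array of a group being assumed to vary like the other group. Members called, 0 in the reported fit, were 4 with median scaling and 4 with the authors' value table (Igf1, Igf1r, Igfbp7 and Vegfc both times), 7 with normexp (these and Igfbp3, Pdgfra and Pdgfrb), and 0 to 13 with 1 array left out. They were 0 with quantile normalization, with no filter, with a filter on all arrays and with the mean of probes. Members at least 2-fold apart without overlap, 12 as reported, were 6 with normexp (1 higher, 5 lower) and 5 with a filter on all arrays (3 higher, 2 lower), where the Igf1r probe tested differed by -1.05. The median of members ran from -0.50 to 0.11. The cause of these shifts was not tested.

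Same-numbered arrays deviated together with a correlation of 0.347 over genes, but 2 pairs and unexplained numbers do not make a paired design. With the replicate block, which leaves 1 residual degree of freedom, 1829 genes and 11 members were called.

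Reversed were Fgf12 (0.07), Irs1 (0.28) and Cbl (0.08) with normexp, and Fgfr2 (-0.61) and Ptpn11 (-0.07) with the mean of probes. With 1 array left out, the difference ran from -0.34 to 0.38 for Fgfr2, -0.04 to 0.67 for Igf2r, -0.45 to 1.14 for Nrp2, -1.81 to 0.14 for Irs1 and -1.83 to 0.04 for Egr1. Signal over background limits the 11 members, Fgf12 among them, whose probe was not well above background on CD44+ array 1. It also limits Irs1, Pappa, Spred1, Etv5 and Cbl, which were not well above background on both CD44+ arrays.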
